A study of Mus musculus with 14 samples.

Results

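The genes described here encode enzymes that make, recycle and use glutathione and thioredoxin, the main thiol defences of the cytosol. Of 10 listed genes (Srxn1, Gclm, Gclc, Gsr, Gss, Txnrd1, Txn1, Prdx1, Slc7a11 and Gpx1), 9 had a probe set assigned to that gene alone, among 18193 such genes on the array. Each gene is represented by its single-gene probe set with the highest mean over all arrays. Prdx1, a peroxiredoxin, has 5 probe sets that the annotation shares with the predicted gene Gm21399, so it has no value here. The genes were put on the list with results of these arrays in view, and they count as chosen by their levels with CA074Me against those with DMSO. That contrast is therefore given as a description only. Counts of calls from its fit are printed, but no result is read from them.

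Dendritic cells were derived from BALB/c bone marrow with recombinant GM-CSF over 8 days, and total RNA was hybridised to 14 Affymetrix arrays. Cells first received 0.01% DMSO, 5 µM CA074Me or 5 µM CLIK148 for 1 h. They were then left unstimulated, or were given 25 µg/mL CpG oligonucleotide or 500 U/mL TNF-alpha (TNF below). The 7 groups were DMSO, CLIK148, CA074Me, DMSO plus CpG, DMSO plus TNF, CLIK148 plus CpG, and CA074Me plus TNF, each with 2 arrays, 1 from each of 2 independent experiments. No group paired CA074Me with CpG or CLIK148 with TNF, every group without an inhibitor received the solvent, and how long the stimulus lasted before harvest is not stated in the labels. CA074Me is a cell-permeable methyl ester inhibitor of cathepsin B, and CLIK148 is an inhibitor of cathepsin L, both lysosomal cysteine proteases. The study compared these inhibitors for mediators of Th1 and Th2 responses, with CpG as the Th1 and TNF as the Th2 stimulus.

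Values are log2 RMA expression levels, so a difference of 1 is a doubling of the signal. The arrays of a group correlated with r from 0.961 to 0.985 over the 12172 tested genes, each with 1 probe set. All 14 dendritic cell markers exceeded the table's median of 7.52 on at least 2 arrays, with a mean level of 11.70 to 12.06 by array. The macrophage markers averaged 11.25 to 12.14 and the granulocyte markers 11.70 to 12.08, so genes of those cells were bright in every group as well. Lymphocyte markers averaged 7.57 to 7.68 and erythroid markers 7.24 to 7.39. Of the 11 lymphocyte markers with a probe set, Cd3g, Cd79a and Ncr1 lay below the table's median on every array. Cd3e, Cd3d, Cd4 and Siglech lay above it on all 14 arrays, Cd79b on 13, Ms4a1 on 9, Cd8a on 4 and Nkg7 on 2. Of the 5 erythroid markers with a probe set, Hba-a1, Alas2 and Slc4a1 lay below it on every array. Epor lay above it on all 14 and Klf1 on 13. These are bulk samples, in which more cells of a type and more RNA per cell cannot be told apart.

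Glutathione is a tripeptide built in consecutive steps. Cystine enters through the exchanger xCT, whose light chain is Slc7a11. Glutamate-cysteine ligase, made of the catalytic subunit Gclc and the modifier subunit Gclm, joins glutamate to cysteine in the rate-limiting step, and glutathione synthetase (Gss) adds glycine. Glutathione peroxidase 1 (Gpx1), a selenoenzyme, spends glutathione on peroxides, and glutathione reductase (Gsr) regenerates it with NADPH. In the parallel system thioredoxin (Txn1) reduces peroxiredoxins such as Prdx1, thioredoxin reductase 1 (Txnrd1) recharges thioredoxin, and sulfiredoxin (Srxn1) restores overoxidised peroxiredoxins. Several of these genes are known targets of the transcription factor NRF2 (Nfe2l2), which KEAP1 holds back until electrophiles or oxidants modify its cysteines. NRF2 binds antioxidant response elements, and Slc7a11 is also known as a target of ATF4 in the amino acid response.

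The RefSeq promoter table (GRCm38.p6) held 10 promoters for 8 of the 10 genes, all but Gclc and Gsr, with 3 for Txnrd1. The 250 bases before each start were searched on both strands for 3 short motifs. The antioxidant response element core TGACNNNGC occurred in 10.2% of all 32851 windows of that length. The shorter TGANTCA, bound by AP-1 and by NF-E2 family factors, occurred in 6.75% and can overlap the former, and TGATGNAA, the core of the C/EBP-ATF element, occurred in 3.45%. Windows of Srxn1, Slc7a11 and Gpx1 are printed because they show a gene with one of the largest CA074Me differences and matches, the cystine importer with another motif, and a gene near 0 with no match. Capitals mark matches, each window runs 5′ to 3′ on the gene's strand, and the last base lies just before the annotated start. The windows are chr2:152105274-152105523 (plus strand) for Srxn1, chr3:50443614-50443863 (minus strand) for Slc7a11 and chr9:108338830-108339079 (plus strand) for Gpx1.
Srxn1: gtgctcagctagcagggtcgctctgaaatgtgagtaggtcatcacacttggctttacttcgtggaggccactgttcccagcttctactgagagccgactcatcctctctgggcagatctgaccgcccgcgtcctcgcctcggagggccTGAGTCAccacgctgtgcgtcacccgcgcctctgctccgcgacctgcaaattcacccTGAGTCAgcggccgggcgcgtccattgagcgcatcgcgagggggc
Slc7a11: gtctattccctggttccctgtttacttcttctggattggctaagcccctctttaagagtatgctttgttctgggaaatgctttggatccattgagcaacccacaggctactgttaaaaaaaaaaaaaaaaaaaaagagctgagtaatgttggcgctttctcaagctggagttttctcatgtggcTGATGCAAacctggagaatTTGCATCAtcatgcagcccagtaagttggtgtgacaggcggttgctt
Gpx1: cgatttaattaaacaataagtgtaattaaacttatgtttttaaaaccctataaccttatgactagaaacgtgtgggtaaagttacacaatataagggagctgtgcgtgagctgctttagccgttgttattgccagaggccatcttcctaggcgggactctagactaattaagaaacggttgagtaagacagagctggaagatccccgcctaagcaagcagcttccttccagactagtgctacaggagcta

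The Srxn1 window holds TGAGTCA from 102 to 96 and again from 45 to 39 bases before the start. The second of these is followed by GC. It thus differs from the searched antioxidant response element core in 1 letter, G in place of C. In the Slc7a11 window TGATGCAA lies 66 to 59 bases before the start and its reverse complement TTGCATCA 47 to 40 bases before it. Among the windows not printed, the antioxidant response element core matched once in Gclm (GCACCGTCA on the gene's strand, the motif being on the other), once in 1 of the 3 Txnrd1 windows (GCTTTGTCA) and once in Prdx1 (GCTGAGTCA). Prdx1 also holds TGANTCA at 2 places, 1 of them overlapping that match. No motif of the 3 was found in the windows of Gss, Txn1 or Gpx1. A match is a run of letters, and no binding was measured in this study. The printed windows were picked with differences and matches known, and whether matches go with the CA074Me differences was not tested.

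CA074Me alone was accompanied by higher levels of the ligase subunits, sulfiredoxin, both reductases and the cystine importer, and by little difference in thioredoxin and Gpx1. Srxn1 (chromosome 2, 152105524 to 152111376) read 9.92 and 9.41 on the DMSO arrays of experiments 1 and 2, and 11.21 and 9.83 with CA074Me. The difference was thus 1.29 in experiment 1 and 0.43 in experiment 2, and the CA074Me array of experiment 2 lay below the DMSO array of experiment 1. Gclm (chromosome 3, 122245487 to 122267215) read 11.56 and 11.41 with DMSO against 12.78 and 11.90 with CA074Me. Both CA074Me arrays lay above both DMSO arrays for this regulatory ligase subunit, by 1.22 and 0.48 within the experiments. Gclc (chromosome 9, 77754535 to 77794489), the catalytic subunit, read 9.51 and 9.57 with DMSO and 10.30 and 9.94 with CA074Me, again without overlap.

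The recycling enzymes differed less. Txnrd1 (chromosome 10, 82833951 to 82897724) read 12.27 and 11.84 with DMSO and 12.91 and 12.24 with CA074Me, a difference of 0.64 and 0.40 with the groups just overlapping. Gsr (chromosome 8, 33653238 to 33698162) read 10.83 and 10.99, then 11.46 and 11.23. The cystine importer Slc7a11 (chromosome 3, 50364936 to 50499087) read 9.88 and 9.70, then 10.50 and 9.94. In both of these genes the CA074Me arrays were the higher ones, and the smaller gap was in experiment 2. Gss (chromosome 2, 155563181 to 155592810) was 8.93 on each DMSO array and 9.30 and 8.99 with CA074Me. Thioredoxin itself, Txn1 (chromosome 4, 57943373 to 57956411), was among the brightest signals, at 14.11 and 13.94 with DMSO and 14.18 and 14.01 with CA074Me. Gpx1 (chromosome 9, 108339080 to 108340342) read 14.69 and 14.54, then 14.64 and 14.54. Txn1 and Gpx1 moved by under 0.10 in each experiment.

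The mean difference with CA074Me alone was 0.86 for Srxn1, 0.85 for Gclm, 0.58 for Gclc, 0.52 for Txnrd1, 0.44 for Gsr, 0.43 for Slc7a11, 0.22 for Gss, 0.07 for Txn1 and -0.02 for Gpx1. Single arrays carried part of this: Slc7a11 gave 0.12 without the DMSO array of experiment 1 and 0.74 without that of experiment 2. Leaving out the CA074Me array of experiment 1 or 2 gave 0.09 or 0.34 for Gss and 0.43 or 0.73 for Gclc. The median of the 9 was 0.44, with 0.63 in experiment 1 and 0.24 in experiment 2, where the median of all 12172 tested genes was -0.02. The limma fit called 0 of the 9 at an adjusted p under 0.05, and 0% of all genes (335 genes, 2.75%, had an unadjusted p under 0.05). CA074Me was higher in both experiments for 8 of the 9 and for 17.5% of all genes. The groups did not overlap, with CA074Me higher, for 5 of the 9 (Gclm, Gclc, Gsr, Gss and Slc7a11) and for 6.74% of all genes. Since this is the contrast behind the choice of genes, these counts describe the list and nothing is read from them.

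**Figure D1:**
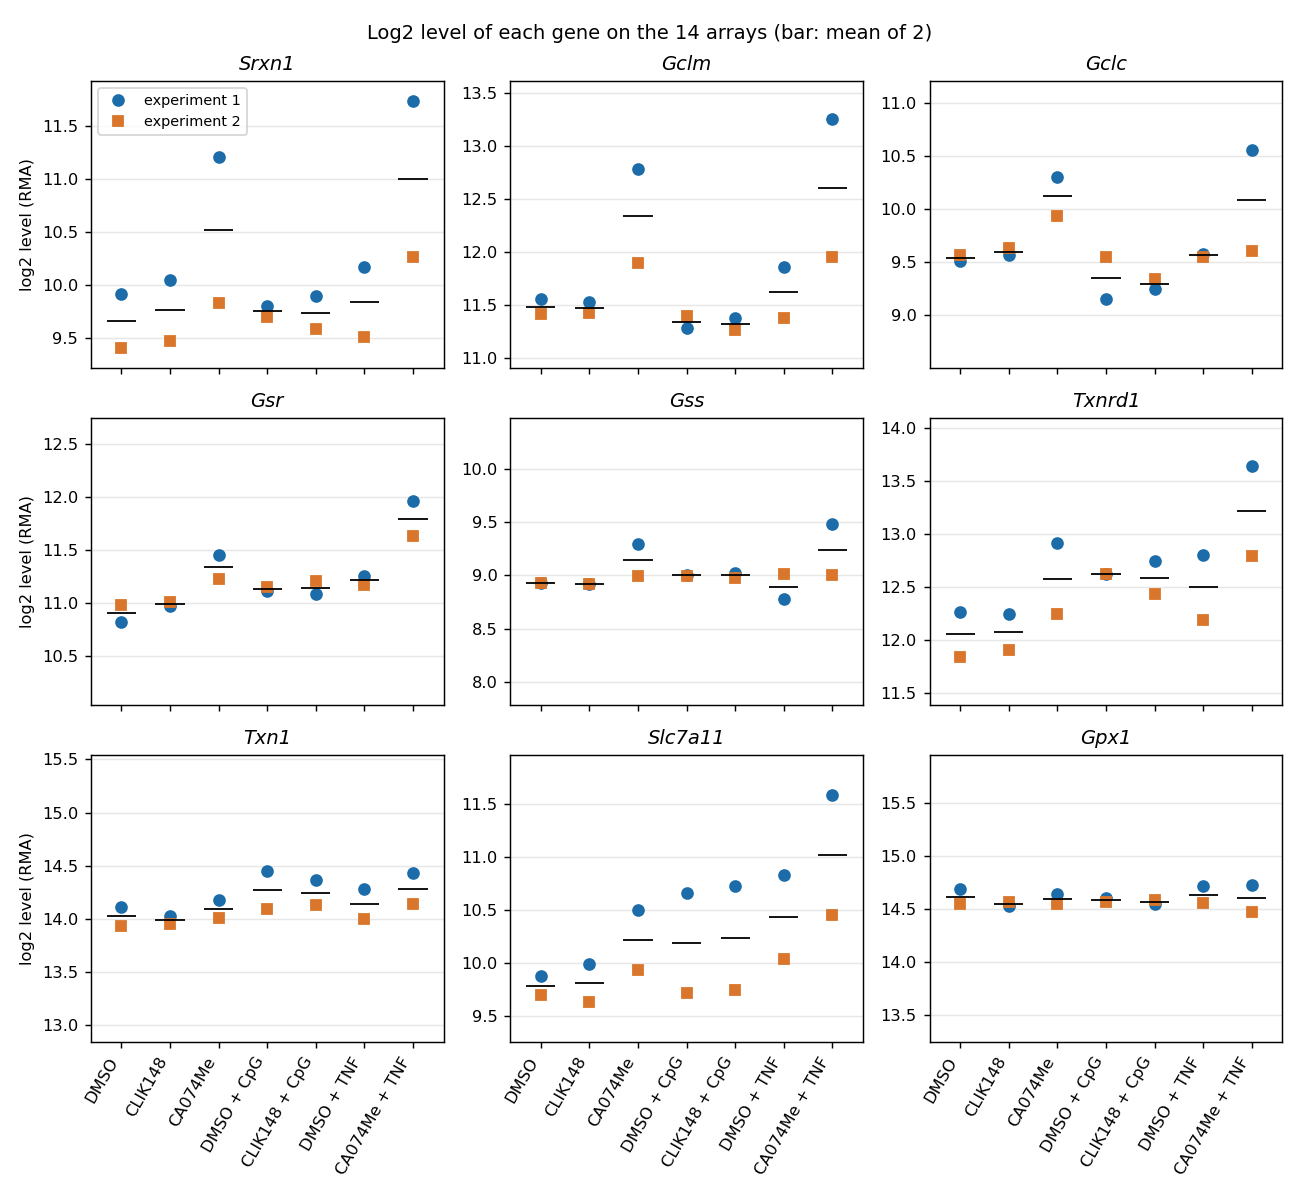
Log2 RMA level of each of the 9 genes (vertical axis, every panel spanning the same range) in the 7 groups (horizontal axis). Circles are experiment 1, squares experiment 2 and bars the mean of the 2 arrays. CA074Me plus TNF has the highest mean for 7 of the 9 genes, and Gpx1 keeps means of 14.55 to 14.63 throughout.

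CA074Me under TNF was measured on arrays that the preceding contrast did not use. The list was still made with earlier results of these data known, so these values are no independent check of it. The same genes were again on the high side, and on its brightest probe set Srxn1 had the largest positive difference of all 12172 tested genes, but none passed the test after adjustment. That rank did not hold for the mean of the Srxn1 probe sets (0.69) or without the CA074Me plus TNF array of experiment 1 (0.72), where Cxcl5 was higher at 1.05 and 1.03. Srxn1 read 10.17 and 9.51 with DMSO plus TNF and 11.73 and 10.27 with CA074Me plus TNF. The lower CA074Me array was above the higher DMSO array by a small margin, and the fitted difference was 1.16 ± 0.30 (standard error, n = 2 arrays per group; 95% interval 0.47 to 1.85), or 2.23-fold. Gclm read 11.86 and 11.38, then 13.25 and 11.96. It ranked 4 of all genes, with a difference of 0.98 ± 0.30 (interval 0.31 to 1.66). Gclc read 9.58 and 9.55, then 10.56 and 9.61. Nearly all of its difference (0.52 ± 0.25, interval -0.06 to 1.09) came from experiment 1, with 0.97 there and 0.058 in experiment 2.

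On their brightest probe sets both reductases were higher in each experiment. Txnrd1 read 12.80 and 12.19 with DMSO plus TNF and 13.64 and 12.79 with CA074Me plus TNF, a difference of 0.72 ± 0.17 (interval 0.34 to 1.10). The gap between experiments was of the size of the gap between treatments, so the lower CA074Me array just missed the higher DMSO array. Gsr read 11.26 and 11.17, then 11.96 and 11.63, without overlap, and differed by 0.58 ± 0.12 (interval 0.32 to 0.85). It had the smallest p of the 9, 0.000796 unadjusted and 0.969 adjusted in limma, and all adjusted p values of the others were larger. Slc7a11 read 10.83 and 10.04, then 11.58 and 10.45, and differed by 0.58 ± 0.21 (interval 0.11 to 1.06). The importer was higher in both experiments, by 0.75 and 0.42, while its groups overlapped.

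Synthetase, thioredoxin and peroxidase stood lower in the order. Gss read 8.78 and 9.01 with DMSO plus TNF and 9.49 and 9.0 with CA074Me plus TNF. On its brightest probe set the difference of 0.35 ± 0.14 (interval 0.02 to 0.68) came from experiment 1 alone, at 0.71, since experiment 2 gave -0.0086. Txn1 read 14.28 and 14.00, then 14.43 and 14.14, a difference of 0.15 ± 0.07 (interval -0.02 to 0.31) that was nearly equal in the experiments. Gpx1 read 14.71 and 14.56, then 14.72 and 14.47, and differed by -0.04 ± 0.08 (interval -0.22 to 0.15).

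Counted together, 0 of the 9 genes were called under TNF, against 1 of 12172 genes (0.00822%). That gene was Cxcl5, which encodes a neutrophil-attracting chemokine, at 1.05 ± 0.09 (limma adjusted p = 0.0142). It was called neither without the block nor in any of the 4 fits that left out 1 array of the comparison. At an unadjusted p under 0.05 in limma there were 6 of the 9 (Srxn1, Gclm, Gsr, Gss, Txnrd1 and Slc7a11), against 3.04% of all genes. CA074Me was higher in both experiments for 7 of the 9, against 29.7% of all genes, and without overlap of the groups for 4 (Srxn1, Gclm, Gclc and Gsr), against 11.3%. The median of the 9 was 0.58, with 0.75 in experiment 1 and 0.42 in experiment 2, beside 0.00 for all genes. Since the list was made with results of these arrays in view, the counts and medians under TNF describe it. In the inhibitor comparisons and their interactions only 0.37% to 3.04% of all genes had an unadjusted p under 0.05.

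The test of whether TNF altered the CA074Me difference gave 0 of the 9 and 0% of all genes (303 genes, 2.49%, at an unadjusted p under 0.05, none of the 9). The point estimates ran from -0.06 for Gclc to 0.30 ± 0.43 for Srxn1, whose interval of -0.67 to 1.27 leaves room for a difference in either direction. This test includes the arrays of CA074Me alone.

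**Figure D2:**
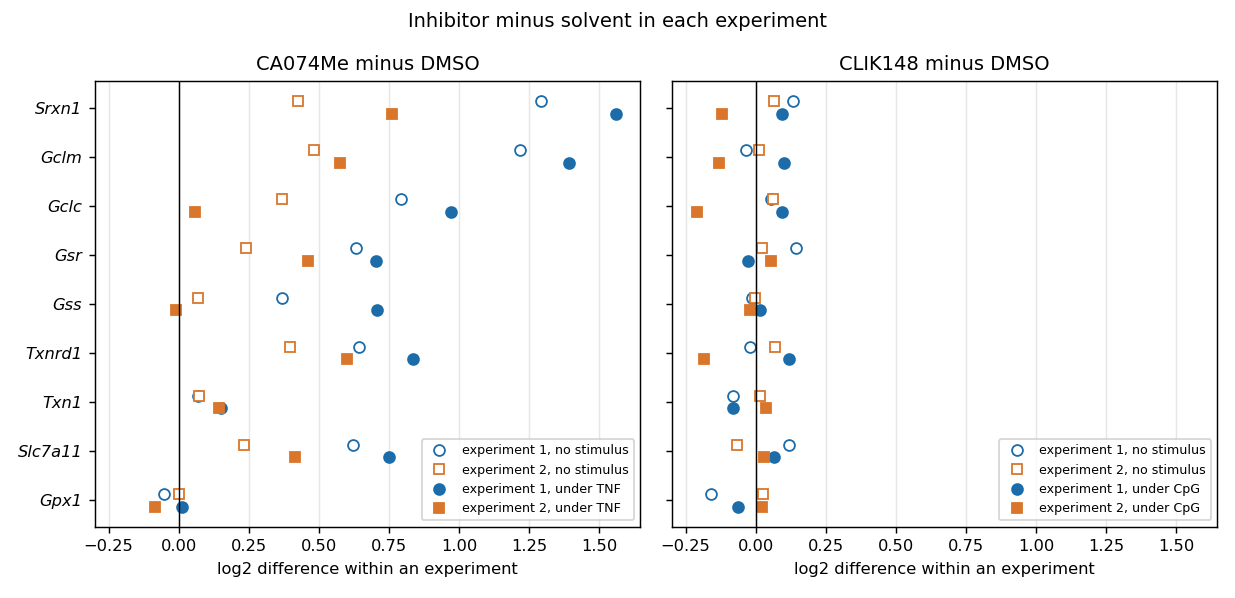
Log2 difference of inhibitor minus matching DMSO group for each of the 9 genes, with circles for experiment 1, squares for experiment 2, open symbols without and filled symbols with a stimulus. For Srxn1 the CA074Me differences are 1.29 and 0.43 alone and 1.56 and 0.76 under TNF, while the CLIK148 differences lie close to 0.

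CLIK148 at the same dose left the genes near their DMSO levels. Srxn1 read 10.05 and 9.47 with CLIK148, and 9.89 and 9.58 with CLIK148 plus CpG against 9.80 and 9.70 with DMSO plus CpG. Gclm read 11.53 and 11.42, and then 11.38 and 11.27 against 11.28 and 11.40. In both genes the CLIK148 arrays lay within or next to the range of their controls. Over the 9 genes the differences ran from -0.07 to 0.10 with CLIK148 alone (median 0.02) and from -0.06 to 0.05 under CpG (median -0.02). With CLIK148 alone limma called 0 of the 9 and 0% of all genes (45 genes, 0.37%, at an unadjusted p under 0.05), and 3 of the 9 were higher in both experiments against 19.1% of all genes. Under CpG it called 0 of the 9 and 0% (226 genes, 1.86%, unadjusted), with 1 of the 9 higher in both experiments against 14.9%. The intervals were wide: for Srxn1 under CpG the interval was -0.70 to 0.67 around -0.01, and for Gsr -0.25 to 0.28 around 0.01. The interaction of CLIK148 with CpG called 0 of the 9 and 0% (61 genes, 0.501%, unadjusted, none of the 9).

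The inhibitors were compared directly at 5 µM without a stimulus. CA074Me exceeded CLIK148 by 0.86 ± 0.30 for Gclm (95% interval 0.19 to 1.54), 0.76 ± 0.30 for Srxn1 (0.07 to 1.45), 0.50 ± 0.17 for Txnrd1 (0.12 to 0.88) and 0.35 ± 0.12 for Gsr (0.09 to 0.62). These 4 genes had an unadjusted p under 0.05 in limma, against 2.36% of all genes, and 0 of the 9 and 0% of all genes were called after adjustment. For Gclc the difference was 0.52 ± 0.25 (-0.05 to 1.10) and for Slc7a11 0.40 ± 0.21 (-0.07 to 0.88). Gss, Txn1 and Gpx1 differed by 0.23, 0.10 and 0.04, with intervals that hold 0. CA074Me was the higher in both experiments for 8 of the 9, against 20.3% of all genes, and the groups did not overlap for 4 (Gclm, Gclc, Gsr and Gss), against 8.47%. This comparison reuses the CA074Me arrays of the contrast that led to the list, so it is no separate evidence for CA074Me. In a fit limited to the 4 arrays of this comparison, which has 1 residual degree of freedom, 6 of the 9 were called, with 1.38% of all genes. The same restriction under TNF called 0 of the 9.

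**Figure D3:**
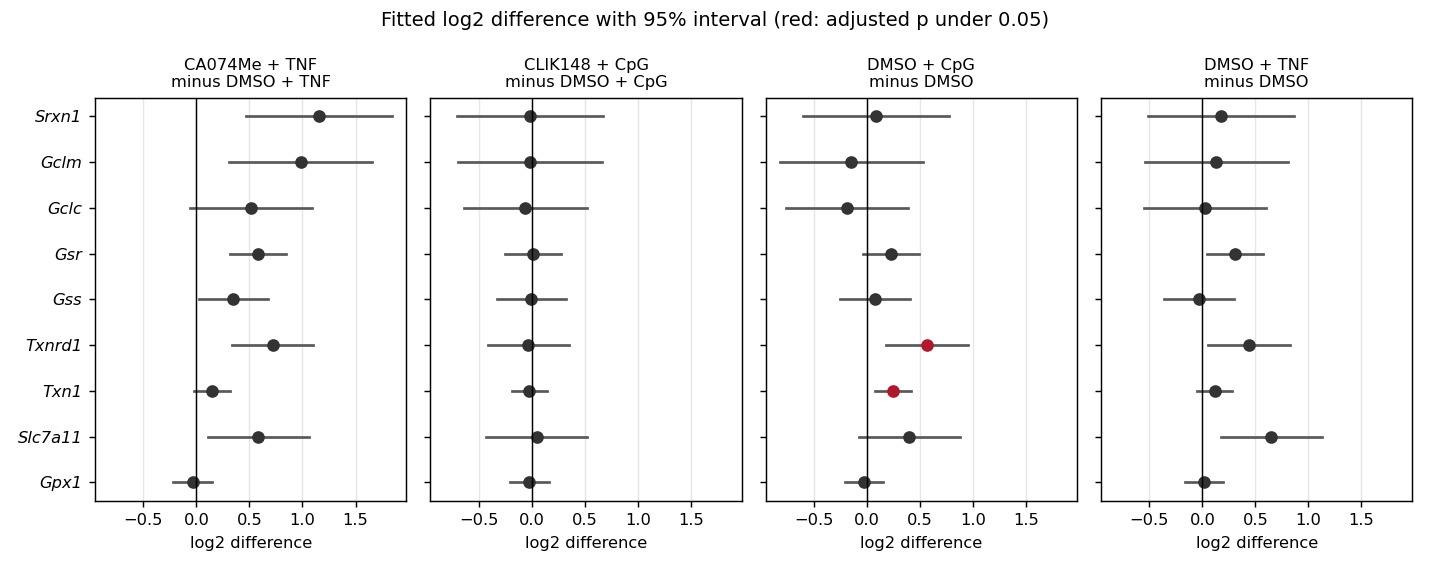
Fitted log2 differences of the 9 genes by comparison (points) with 95% confidence intervals from limma with the experiment as a block (bars). CA074Me under TNF runs from -0.04 for Gpx1 to 1.16 for Srxn1, CLIK148 under CpG stays between -0.06 and 0.05, and red points (Txnrd1 and Txn1 with CpG) have an adjusted p under 0.05.

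With CpG and no inhibitor the share of the 9 genes called was near that of all genes. The DMSO arrays used here belong to the contrast by which the genes count as chosen, so the CpG values are no independent check. Txnrd1 read 12.62 on both DMSO plus CpG arrays, above 12.27 and 11.84, a rise of 0.57 ± 0.17 (limma adjusted p = 0.0458). Txn1 read 14.45 and 14.09 against 14.11 and 13.94, a rise of 0.25 ± 0.07 (limma adjusted p = 0.0458). These 2 of the 9 were called, against 19.9% of all genes in either direction and 6.19% in the upward one, so the count is no result about the list. Both calls depended on the fit: without the experiment as a block the adjusted p values were 0.404 and 0.457. Both were lost without either DMSO array, where 0 of the 9 were called, and 1 was lost without either CpG array. The importer Slc7a11 read 10.66 and 9.71 with CpG, higher than DMSO in experiment 1 and equal within 0.10 in experiment 2 (0.40 ± 0.21, adjusted p = 0.197). Gsr differed by 0.23 ± 0.12 (adjusted p = 0.188). The ligase subunits leaned the other way, with Gclc at -0.19 ± 0.25 and Gclm at -0.15 ± 0.30, neither called. Macrophage markers moved in the same groups: 6 of 12 were called lower with CpG (none without the block), against 1667 of all 12172 genes. Their median difference was -0.36, and their mean level by array was 11.40 to 11.68 with CpG against 11.67 to 12.14 with DMSO. Of the 14 dendritic cell markers, 1 was called higher and 1 lower. The part of the macrophage marker shift in the CpG values was not tested.

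TNF without an inhibitor gave its largest difference in the importer. Slc7a11 read 10.83 and 10.04 with TNF against 9.88 and 9.70, without overlap, a difference of 0.65 ± 0.21 (limma adjusted p = 0.130). Txnrd1 differed by 0.44 ± 0.17 (adjusted p = 0.186) and Gsr by 0.31 ± 0.12 (adjusted p = 0.182). The other 6 genes ran from -0.03 for Gss to 0.18 for Srxn1. None of the 9 was called, against 3.11% of all genes; 3 of the 9 and 20.5% of all genes had an unadjusted p under 0.05. Between CpG and TNF 0 of the 9 were called, against 0.435% of all genes. The macrophage markers had a median difference of -0.37 with TNF and a mean level by array of 11.38 to 11.58, none being called, and their part in the TNF values was not tested. CLIK148 alone, CA074Me alone, CpG and TNF were all measured against the same DMSO arrays. A low DMSO reading raises each of these differences. Since those arrays are part of the contrast behind the choice of genes, the values are no independent check of the list.

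For Gclm the group means were 12.61 ± 0.92 (SD, n = 2) with CA074Me plus TNF, 12.34 ± 0.63 with CA074Me and 11.62 ± 0.34 with DMSO plus TNF, and the other groups lay between 11.33 and 11.49. These SDs include the gap between experiments: within each experiment Gclm was higher with CA074Me plus TNF than with CA074Me, at 13.25 against 12.78 and 11.96 against 11.90, a difference that was not tested. Srxn1 and Slc7a11 were each lower by 0.71 in experiment 2 than in experiment 1, averaged over the groups, Txnrd1 by 0.46 and Gclm by 0.42, where the median of all genes was 0.05 higher. Gsr, at -0.04, was nearly level between the experiments. The highest mean was that of CA074Me plus TNF for Srxn1, Gclm, Gsr, Gss, Txnrd1, Txn1 and Slc7a11, that of CA074Me alone for Gclc and that of DMSO plus TNF for Gpx1.

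The genes also differed in how closely they moved together over the 14 arrays, after each was centred within its experiment. Srxn1 and Gclm correlated with r = 0.975, Gclm and Gclc with 0.957, and the reductases Gsr and Txnrd1 with 0.921. Txnrd1 correlated with its substrate Txn1 at 0.731, and Gclc with Txn1 at -0.045. Against the mean of the other 8 genes, Gsr had the highest r, 0.962, and Gpx1 the lowest, 0.326. These correlations describe arrays that share treatments and experiments. They include the CA074Me and DMSO arrays by which the genes count as chosen, so they are a description only.

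Other probe sets of the same genes gave smaller values in some cases. Under TNF with CA074Me the 4 Srxn1 probe sets gave 1.16, 0.93, 0.59 and 0.07, and the 3 Txnrd1 probe sets 0.72, 0.34 and 0.17. In experiment 2 those Txnrd1 probe sets gave 0.60, 0.034 and -0.011. Agreement was closer for Gsr (0.58 and 0.56), Gss (0.35 and 0.37), Gclc (0.52 and 0.54) and Gclm (0.98 and 0.84). The second Gclc probe set gave 0.32 in experiment 2 in place of 0.058, and the second Gss probe set 0.11 in place of -0.0086. For Slc7a11 the values were 0.58 and 0.32, and for Txn1 0.15 and 0.09.

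Among the tested genes outside the list, the 10 whose centred levels were most like the mean of the 9 over the 14 arrays were Nqo1 (r = 0.969), Afp (0.958), Blvrb (0.955), Slc11a1 (0.950), Ppbp (0.945), Nrp1 (0.939), Ikbkg (0.932), Pgd (0.923), Sgpl1 (0.915) and Il1f9 (0.905). Nqo1 encodes a quinone reductase, Blvrb biliverdin reductase B, and Pgd an NADPH-producing enzyme of the pentose phosphate pathway. Ppbp encodes a platelet chemokine precursor and Il1f9 a cytokine of the interleukin-1 family. Under TNF with CA074Me, Nqo1 differed by 0.79, Afp by 0.79, Blvrb by 0.74, Slc11a1 by 0.48, Ppbp by 1.09, Nrp1 by 0.55, Ikbkg by 0.23, Pgd by 0.30, Sgpl1 by 0.24 and Il1f9 by 0.68. Likeness here includes the CA074Me arrays, and it is a description.

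Genes of the wider pathway had smaller median differences. Of 20 further glutathione genes 15 were tested, and their median under TNF with CA074Me was -0.02. The medians were 0.05 for 17 glutathione transferases, -0.00 for 18 thioredoxin and peroxiredoxin genes, 0.08 for 8 genes of superoxide and catalase metabolism and 0.06 for 12 regulators of NRF2, with 0 genes called in each. For 20 other known NRF2 target genes the median was 0.29, with 0.45 in experiment 1 and 0.00 in experiment 2. None was called, and 12 were higher in both experiments, against 29.7% of all genes. The genes with the largest values there, picked after their values were seen, were Hmox1 (heme oxygenase 1) at 0.90 ± 0.16, Nqo1 at 0.79 ± 0.24 and Blvrb at 0.74 ± 0.10. Also picked after their values were seen were Abcc1, Sqstm1, Nfe2l2, Keap1 and Slc3a2, of the glutathione and NRF2 regulator lists. Abcc1, an exporter of glutathione conjugates, differed by 0.73 ± 0.14, and Sqstm1, the autophagy receptor p62 that binds KEAP1, by 0.56 ± 0.07 (limma adjusted p = 0.162). Nfe2l2 itself differed by -0.11 ± 0.09 and Keap1 by 0.20 ± 0.20. Slc3a2, the heavy chain that partners Slc7a11, differed by 0.34 ± 0.18.

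With CpG, 23 of the 90 tested genes of these lists were called (25.6%, against 19.9% of all genes), 10 higher and 13 lower, in the groups where macrophage markers were lower too. Chac2, an enzyme that degrades glutathione, rose from 10.13 and 10.20 with DMSO to 11.48 and 11.18, by 1.16 ± 0.11 (limma adjusted p = 0.00127). Sqstm1 rose from 12.05 and 12.10 to 12.76 and 12.81, by 0.71 ± 0.07 (adjusted p = 0.0013). For both genes the CpG arrays stood clear of the DMSO arrays. Only these 2 of the 23 were also called without the experiment as a block. The glutathione transferase gene Mgst3 fell by 0.75 ± 0.10 and Gstm1 rose by 0.60 ± 0.14; the unblocked adjusted p values were 0.0646 and 0.0928. Hagh, the glyoxalase II gene, fell by 0.65 ± 0.16 and Abcc1 rose by 0.52 ± 0.14 (unblocked 0.127 and 0.290).

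Of the thioredoxin genes, Sesn3 fell by 0.70 ± 0.16, the mitochondrial peroxiredoxin gene Prdx3 by 0.39 ± 0.11 and the methionine sulfoxide reductase gene Msrb2 by 0.38 ± 0.08 with CpG (unblocked adjusted p values in limma 0.510, 0.312 and 0.160). Ncf1, a subunit of the phagocyte NADPH oxidase, rose by 0.50 ± 0.10, and Ccs, the copper chaperone of superoxide dismutase 1, fell by 0.47 ± 0.08 (unblocked 0.0763 and 0.178). Among the NRF2 regulators Fbxw11 rose by 0.64 ± 0.15 and Nfe2l1 by 0.36 ± 0.08 (unblocked 0.0770 and 0.0602). Of the other NRF2 targets Ephx1, an epoxide hydrolase gene, fell by 0.91 ± 0.26, Tbxas1 by 0.84 ± 0.16 and Abcc4 by 0.63 ± 0.12 (unblocked 0.496, 0.401 and 0.340). With TNF, 6 of the 90 were called (6.67%, against 3.11%), among them the transferase gene Gstt1, which rose by 0.50 ± 0.09 (limma adjusted p = 0.0229, unblocked 0.802). None of the 6 was called without the block. Apart from Chac2, Sqstm1 and Mgst3 with CpG, every call named in these last paragraphs was lost in at least 1 fit that left out 1 array of its comparison.

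**Figure D4:**
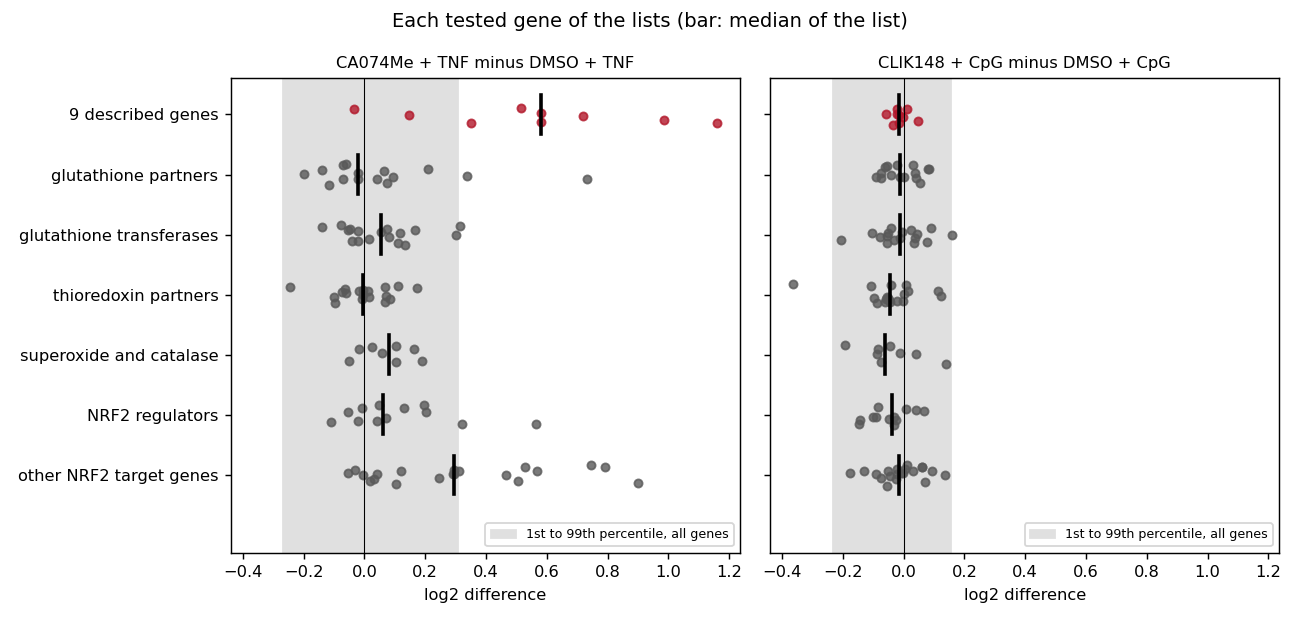
Log2 difference of each tested gene (points) by list, for CA074Me plus TNF minus DMSO plus TNF (left) and CLIK148 plus CpG minus DMSO plus CpG (right), with black bars at list medians and grey bands from the 1st to the 99th percentile of all genes. The 9 described genes have a median of 0.58 on the left and -0.02 on the right, and the other NRF2 target genes one of 0.29 on the left (0.45 in experiment 1 and 0.00 in experiment 2). The 9 were chosen with results of these arrays in view.

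Under TNF with CA074Me the median differences of the cell type markers were 0.07 for the dendritic cell list, -0.04 for macrophage, 0.02 for granulocyte, 0.05 for lymphocyte and -0.02 for erythroid markers, with 0 markers called. Single markers ran from -0.36 (Fcgr1, macrophage) to 0.27 (Ciita, dendritic cell), and the macrophage median was 0.02 in experiment 1 and -0.17 in experiment 2. Their part in the CA074Me values was not tested.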

How the data were processed

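The authors made the deposited log2 values by RMA in R 3.0.1, per the submitters' processing notes, which do not state its settings. RMA corrects background, equalises the distributions of the arrays and summarises probes, so a shift common to all genes cannot be seen. The table held 45101 probe sets: 34945 had 1 gene, 932 several and 64 were controls. By identifier, 34741 of the former matched a RefSeq gene, and 0 symbols changed. Genes above the overall median of 7.52 on at least 2 arrays were tested, 12172 of 18193.

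All 14 arrays and 7 groups were fitted in limma 3.58.1 (R 4.3.3) with the block for experiment included (residual degrees of freedom 6), 2-sided moderated tests and Benjamini-Hochberg adjustment over all tested genes in each of 10 comparisons. A gene was called at an adjusted p under 0.05. The replicate numbers mark 2 independent experiments per the series' design text, and arrays of the same number deviated together in all 21 pairs of groups (r 0.455 to 0.935). With 2 arrays per group, their number limits the precision.

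The members and gene lists were chosen with earlier results of these data known. Genes named beyond the members were, in each pathway list, the 3 largest differences among those called under CA074Me with TNF, CpG or TNF, and the 10 genes most like the members; others are said to be picked after their values were seen. Alternatives covered the block, cyclic loess, reference-gene scaling, the filter, the choice of probe set, the samples in the fit, array weights, a trended prior and leaving out each array. The code was tested on simulated data.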

Additional observations from a re-analysis of the deposited data

How the results depend on the processing

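With 2 arrays per group, the median half-width of the 95% interval was 0.38 log2 for the 9 genes and 0.20 for all genes. No result changed sign where called. For CA074Me under TNF 0 of the 9 genes were called under every setting tried; their median ran from 0.45 to 0.58 with all arrays and from 0.34 to 0.83 with 1 array left out. Fits limited to the compared groups (1 residual degree of freedom) called 6 of the 9 and 1.4% of all genes for CA074Me alone, and 6 of the 9 and 1.38% for CA074Me versus CLIK148. The genes were chosen on the CA074Me arrays of both, so nothing is read from these counts. With CpG, where 2 were called, the count was 0 with no replicate block, with all probe sets, with only the compared groups and with array weights. It was 1 with cyclic loess, reference-gene scaling, no filter on dim genes and the mean of probe sets, and 0 to 1 with 1 array left out. With TNF, array weights called 1 (Txnrd1, adjusted p = 0.0416). Over all genes, dropping the replicate block took the CpG count from 2420 to 234 and the TNF count from 379 to 14. The block moved no count of the 9 outside CpG. Where a call changed for another reason than fewer arrays, the cause was not tested. Scaling moved the median of all genes by at most 0.060. Cxcl5 under TNF with CA074Me was called in 8 of the 9 settings on all arrays or compared groups, not without the block, and in 0 of 4 fits with 1 array left out. Of the tested values for single genes in single settings, 509 kept their direction and side of the threshold, 119 lost a call and 9 gained one. Most of the 509 were not called in the main fit and stayed uncalled, so they do not measure how stable the calls were. The 119 can come only from genes called in the main fit. Each of those calls was lost in at least 1 setting. Of the values for CA074Me alone, from which no test is read, 111 moved by less than the spread between replicates. The other 6 moved by more (Gclc, Gss and Slc7a11, each with 1 array left out).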
